A study of Mus musculus with 8 samples.

Results

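Mouse MC3T3-E1 osteoblasts grown with Jagged1-overexpressing tumour cells and given MRK-003 were compared with the same osteoblasts grown with vector tumour cells and given DMSO. The arrays were chosen by their sample titles and not by any measured value: 4 of the 8 arrays of the series, 2 per group. MC3T3-E1 is an osteoblast-like line from mouse skull bone, and MRK-003 is an inhibitor of gamma-secretase. Jagged1 MRK-003 therefore differs from vector DMSO in both the tumour cells and the drug, and the comparison asks whether the inhibitor brings Jagged1 co-cultures back to the untreated control state or past it. The remaining groups were vector MRK-003 (vector tumour cells with the inhibitor) and Jagged1 DMSO (Jagged1 tumour cells without it), with 2 arrays each. All groups shared the MC3T3-E1 cells and their medium with fetal bovine serum. The labels name neither the tumour line nor its species, and give no dose or time for the drug and no step that separated tumour cells from osteoblasts. The replicates are biological per the labels, but all come from 1 osteoblast line.

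Notch receptors are cut by gamma-secretase after a ligand such as Jagged1 on a neighbouring cell binds them. The freed intracellular part enters the nucleus and, with the DNA-binding protein RBPJ, turns on targets such as Hes1 and Hey1, which encode transcriptional repressors. In osteoblasts Notch signalling is known to restrain differentiation, and Jagged1 on breast tumour cells is known for its part in bone metastasis.

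Each level below is the log2 ratio of Cy3, the co-culture, over Cy5, a commercial mouse reference RNA that was the same on all 8 arrays, so positive levels lie above the reference. Differences are taken within a replicate number, which is also the slide (slide 1 or slide 2), and are Jagged1 MRK-003 minus vector DMSO unless another pair is named. Errors beside a difference are standard errors from limma, n = 2 per group. Between 71.4% and 89.4% of an array's spots were well above background in Cy3, and the median Cy3 signal was 165 and 117 for Jagged1 MRK-003 against 183 and 76.5 for vector DMSO. The array's place on the slide followed the group on both slides (Jagged1 MRK-003 at place 4, vector DMSO at place 1), so place and group cannot be told apart. All 8 osteoblast genes checked (Runx2, Sp7, Alpl, Bglap, Ibsp, Spp1, Col1a1 and Dmp1) were well above background on all 8 arrays. Of the epithelial markers 15 of 18 were too, and Esrp1 was so on none. Of the macrophage markers 12 of 14 were well above background on all arrays. So were 10 of 11 osteoclast, 7 of 10 adipocyte, 9 of 12 chondrocyte and 8 of 11 endothelial markers. The same share over all genes was not taken, so these counts do not show that such cells were present. In bulk co-cultures, fewer cells of a type and less RNA per cell cannot be told apart.

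The comparison turns on a few probes. The Hes1 probe is shown because its 60 bases match 296 bases of the genome, as for a probe that spans spliced exons. It lies on chromosome 16 at 29738743 to 29739038 (build mm7, plus strand):
Hes1 probe: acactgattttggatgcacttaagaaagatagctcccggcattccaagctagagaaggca
On the same build, the Hey1 probe lies on chromosome 3 at 8669867 to 8669926 and the Dtx4 probe on chromosome 19 at 12146568 to 12146627, both on the minus strand. The Slc16a1 probe lies on chromosome 3 at 104451002 to 104451061 on the plus strand. The Ch25h probe lies on chromosome 19 at 34175232 to 34175291 on the minus strand.

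No gene separated Jagged1 MRK-003 from vector DMSO at an adjusted p under 0.05. limma, fitted to all 8 arrays with the slide as a block, called 0 of 23441 genes (0%), while 2356 genes (10.1%) had an unadjusted p under 0.05, 1031 higher and 1325 lower. In the same fit Jagged1 DMSO against vector DMSO gave 888 calls (3.79%), 323 higher and 565 lower, and vector MRK-003 against vector DMSO gave 7 (0.0299%), 1 higher (0.00427%) and 6 lower (0.0256%). All of these comparisons share the vector DMSO arrays. The 888 calls became 41 without the slide as a block, 108 without the limit on local backgrounds and 234 with the scanner software's processed signals, and the 7 calls became 0 in each of these. The standard deviation of the differences over all genes was 0.181 for Jagged1 MRK-003, 0.180 for vector MRK-003 and 0.267 for Jagged1 DMSO, each against vector DMSO. Differences of at least 1 on the log2 scale were found for 31 genes in Jagged1 MRK-003, 7 higher and 24 lower, against 206 genes in Jagged1 DMSO. The count depended on the fit: with only the 4 arrays compared and the slide as a block, 18 genes passed, 3 higher and 15 lower.

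The smallest adjusted p belonged to Dtx4, a Deltex-family ubiquitin ligase of the Notch pathway, and it missed the threshold narrowly. Dtx4 was at -0.65 and -0.84 in Jagged1 MRK-003 (replicates 1 and 2), against 0.61 and 0.66 in vector DMSO. Both inhibitor arrays lay below both control arrays, and the difference was -1.39 ± 0.10 (limma, adjusted p = 0.0503). Further probes of Dtx4, well above background on all 8 arrays, gave smaller differences of -1.11 and -0.70. Over the alternatives tried the adjusted p of Dtx4 ran between 0.0142 and 0.509. Jagged1 DMSO had Dtx4 at 2.47 and 2.31, so Jagged1 cells with the inhibitor lay below the untreated control rather than between it and Jagged1 DMSO.

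Hey1 followed the same order of levels. It was at -2.11 and -2.12 in Jagged1 MRK-003, 3.29 and 3.05 in Jagged1 DMSO, and -0.61 and -0.56 in vector DMSO. Jagged1 MRK-003 differed from vector DMSO by -1.52 ± 0.16, a level 2.88-fold lower, with a 95% interval of -1.91 to -1.14 (limma, adjusted p = 0.111, over the alternatives 0.0151 to 0.955). Without the inhibitor Jagged1 raised Hey1 by 3.76 ± 0.16 (Jagged1 DMSO against vector DMSO, limma, adjusted p = 6.52e-04). Hes1 was at 0.20 and 0.67 in Jagged1 MRK-003, 2.20 and 2.27 in Jagged1 DMSO, and 1.34 and 1.80 in vector DMSO. The groups did not overlap, and Jagged1 MRK-003 differed from vector DMSO by -1.14 on slide 1 and -1.13 on slide 2 (limma, -1.14 ± 0.12, adjusted p = 0.111, over the alternatives 0.0298 to 1). Dbndd2, a dysbindin domain gene, was at -0.83 and -0.96 in Jagged1 MRK-003, 1.37 and 1.41 in Jagged1 DMSO, and -0.32 and -0.40 in vector DMSO. Its difference from vector DMSO was -0.53 ± 0.08 (limma, adjusted p = 0.196), while Jagged1 DMSO was 1.75 ± 0.08 higher (limma, adjusted p = 6.52e-04).

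Notch3, a Notch receptor gene that is itself induced by Notch, was at -2.45 and -2.26 in Jagged1 MRK-003, -0.28 and -0.38 in Jagged1 DMSO, and -1.97 and -1.98 in vector DMSO. Its difference of -0.38 ± 0.11 did not pass (limma, adjusted p = 0.363). Jag1, the gene of the ligand, was at 1.99 and 2.09 in Jagged1 MRK-003, 3.33 and 3.30 in Jagged1 DMSO, and 2.15 and 1.95 in vector DMSO. The Jagged1 MRK-003 arrays overlapped the control arrays, with a difference of -0.01 ± 0.11 and a 95% interval of -0.27 to 0.25 (limma, adjusted p = 0.980). Per the labels the tumour cells overexpressed Jagged1 in both Jagged1 groups, and how much tumour RNA the arrays read was not tested. Heyl, a relative of Hey1, differed by -0.07 ± 0.08 (limma, adjusted p = 0.794), and its other probe gave -0.28. Nrarp, a feedback inhibitor of Notch, was well above background on 0 of 2 Jagged1 MRK-003 arrays and 1 of 2 vector DMSO arrays, against 2 of 2 in Jagged1 DMSO. Its measured difference of 0.08 ± 0.09 therefore rests on dim spots and no fold is given (limma, adjusted p = 0.797). Notch1, another receptor, differed by -0.54 ± 0.11 (limma, adjusted p = 0.235), and a further probe of the gene gave -0.54 as well. Of the 19 canonical Notch targets measured, 0 passed in Jagged1 MRK-003 (0% of all genes) and the median difference was 0.00, beside 0.01 over all genes. In Jagged1 DMSO 5 of these 19 rose and 1 fell, against 1.38% and 2.41% of all genes. Nrarp is among those that rose, but it was kept for testing only through its Jagged1 DMSO arrays, where it is high.

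**Figure D1:**
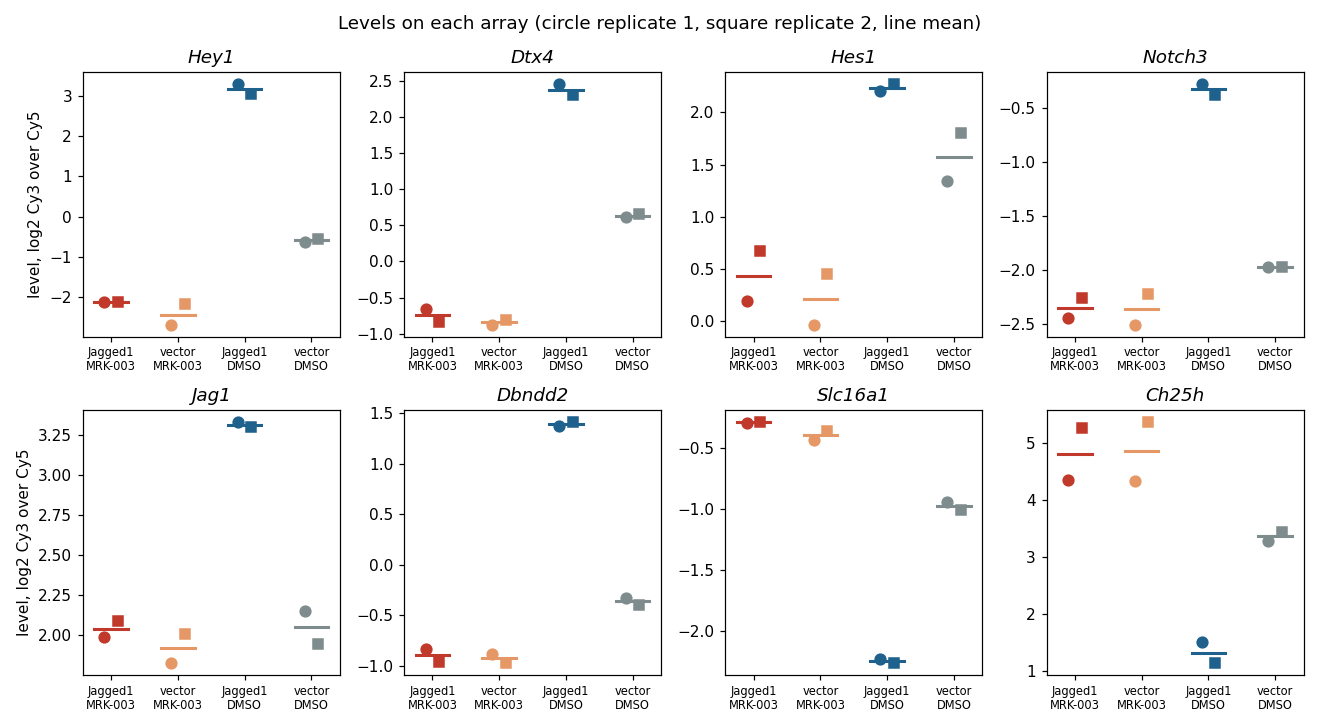
Levels of 8 genes on each array, as log2 Cy3 over Cy5, with the 4 groups along the horizontal axis. Circles are replicate 1, squares replicate 2 and lines the mean of the 2 arrays. Hey1, Dtx4 and Hes1 lie below the vector DMSO arrays in both MRK-003 groups and above them in Jagged1 DMSO, Jag1 overlaps the control, and Slc16a1 and Ch25h show the opposite order.

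Genes that Jagged1 moved in DMSO were then followed across slides, so that the genes were chosen on 1 slide and read on the other. The 100 genes highest in Jagged1 DMSO over vector DMSO on slide 1 were, on slide 2, at a median of -0.28 in Jagged1 MRK-003 and 1.21 in Jagged1 DMSO, each minus vector DMSO. On slide 2, 78 of the 100 lay below the control in Jagged1 MRK-003. The 100 genes lowest on slide 1 were at a median of 0.44 in Jagged1 MRK-003 and -0.96 in Jagged1 DMSO on slide 2, and 93 of them lay above the control in Jagged1 MRK-003. Over all genes the median on slide 2 was 0.01 in Jagged1 MRK-003, with 52.2% of genes above the control.

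The reverse choice gave smaller values. The 100 genes highest on slide 2 were, on slide 1, at a median of 0.09 in Jagged1 MRK-003 and 0.93 in Jagged1 DMSO, and 45 of the 100 lay below the control. The 100 lowest on slide 2 were at 0.16 in Jagged1 MRK-003 and -0.97 in Jagged1 DMSO on slide 1, with 75 above the control. Over all genes the median on slide 1 was 0.002 in Jagged1 MRK-003, with 50.6% of genes above the control. The 45 of 100 below the control thus lay near the share over all genes. So the genes lower with Jagged1 lay above the control with the inhibitor on both readings, and the genes higher with Jagged1 lay below it on 1 reading only. Without the limit on local backgrounds, the genes lower on slide 1 were at -0.0897 in Jagged1 MRK-003 on slide 2, below the control. In vector MRK-003 the medians of the 4 sets, in the order given, were -0.26, 0.44, 0.02 and 0.19. Each reading uses 1 array per group and has no test. Jagged1 MRK-003, vector MRK-003 and Jagged1 DMSO share the vector DMSO array of that slide. Genes kept for testing through 1 group only, as Nrarp was, were neither removed from these sets nor counted. Their values in the other groups can rest on dim spots.

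**Figure D2:**
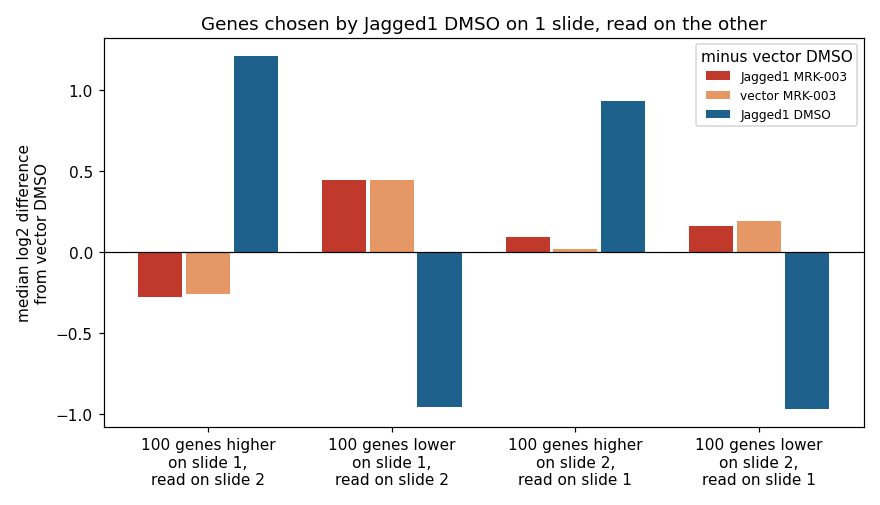
Median log2 difference from vector DMSO of 100 genes chosen by Jagged1 DMSO on 1 slide and read on the other, with bars for Jagged1 MRK-003, vector MRK-003 and Jagged1 DMSO from left to right. Jagged1 DMSO bars keep the chosen direction, and the inhibitor bars lie on the opposite side of 0 except for the genes higher on slide 2, at 0.09 and 0.02.

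Among genes that were low with Jagged1 alone, several lay above the control with the inhibitor. Slc16a1, which encodes a transporter of lactate and pyruvate, was at -0.29 and -0.29 in Jagged1 MRK-003, -2.22 and -2.26 in Jagged1 DMSO, and -0.94 and -1.01 in vector DMSO. Its replicates were close in every group, and Jagged1 MRK-003 exceeded vector DMSO by 0.68 ± 0.08 (limma, adjusted p = 0.138). Its further probes disagreed, at 0.62 and 0.04, both well above background on all 8 arrays. Ch25h, the enzyme that makes 25-hydroxycholesterol, was at 4.34 and 5.25 in Jagged1 MRK-003, 1.50 and 1.14 in Jagged1 DMSO, and 3.27 and 3.44 in vector DMSO. Its difference from vector DMSO was 1.44 ± 0.31 (limma, adjusted p = 0.248, over the alternatives 0.0474 to 1), and the groups did not overlap. Ifi27l2a, an interferon-inducible gene, was at -1.82 and -1.37 in Jagged1 MRK-003, -3.56 and -3.28 in Jagged1 DMSO, and -2.56 and -2.30 in vector DMSO. Of the higher genes with a gene symbol it had the smallest p, with a difference of 0.84 ± 0.09 (limma, adjusted p = 0.111).

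Igfbp2 (an insulin-like growth factor binding protein) and Mcf2l (a guanine nucleotide exchange factor) had the same order. Igfbp2 differed by 0.80 ± 0.11 in Jagged1 MRK-003 and by -0.72 ± 0.11 in Jagged1 DMSO, each against vector DMSO. Mcf2l differed by 0.61 ± 0.08 and -0.94 ± 0.08 in the same pairs, but its 2 further probes gave 0.03 and -0.04 in Jagged1 MRK-003. Neither passed in Jagged1 MRK-003 (limma, adjusted p = 0.159 and 0.163), and both passed in Jagged1 DMSO. Ccl7, a monocyte chemokine, completed the 5 smallest p values among higher genes with a gene symbol. It differed by 0.75 ± 0.10 (limma, adjusted p = 0.163), and it did not pass in Jagged1 DMSO (0.17 ± 0.10). Among lower genes with a gene symbol the 5 smallest p values were those of Dtx4, C1qtnf5, Aldh3a1, Zfp36 and Hes1. C1qtnf5, a secreted C1q-domain protein, was at 0.32 and 0.27 in Jagged1 MRK-003, 2.21 and 2.14 in Jagged1 DMSO, and 1.11 and 1.09 in vector DMSO. Its difference from vector DMSO was -0.80 ± 0.08 (limma, adjusted p = 0.111). Aldh3a1, an aldehyde dehydrogenase, differed by -1.06 ± 0.10 (limma, adjusted p = 0.111) and was 0.72 ± 0.10 higher in Jagged1 DMSO.

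Il6, which encodes interleukin-6, was at 1.19 and 1.44 in Jagged1 MRK-003, 4.01 and 3.62 in Jagged1 DMSO, and 2.45 and 1.73 in vector DMSO. Jagged1 MRK-003 differed from vector DMSO by -1.26 on slide 1 and -0.29 on slide 2, and the difference of -0.77 ± 0.29 did not pass (limma, adjusted p = 0.455). Igfbp5, a further insulin-like growth factor binding protein, was at 1.34 and 1.42 in Jagged1 MRK-003, 4.06 and 3.71 in Jagged1 DMSO, and 2.19 and 1.47 in vector DMSO. Its difference was -0.45 ± 0.22, with a 95% interval of -0.98 to 0.08 that includes 0 (limma, adjusted p = 0.562), and its other probe gave -0.06. Tgfb1, the gene of transforming growth factor beta 1, was at -0.30 and -0.44 in Jagged1 MRK-003, 1.42 and 1.18 in Jagged1 DMSO, and 0.21 and 0.21 in vector DMSO. Its difference of -0.58 ± 0.09 did not pass (limma, adjusted p = 0.196). Of the 15 measured osteoblast factors that act on osteoclasts, 0 passed in either direction in Jagged1 MRK-003, with a median of -0.04. In Jagged1 DMSO 5 of the 15 rose and 1 fell, against 1.38% and 2.41% of all genes.

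**Figure D3:**
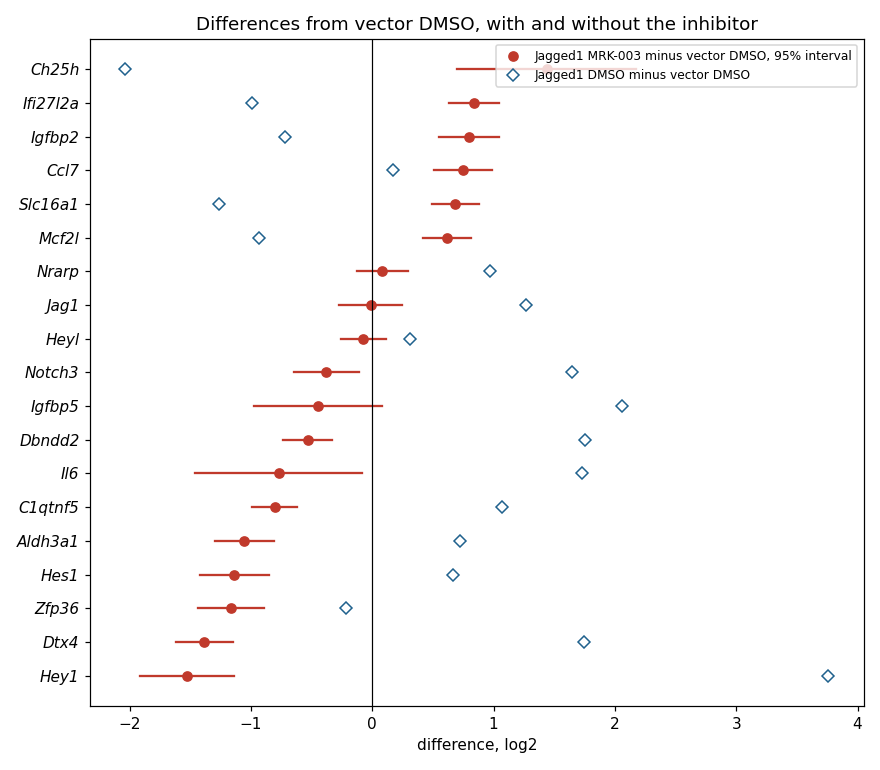
Difference from vector DMSO of 19 genes on the log2 scale, with filled points and 95% intervals for Jagged1 MRK-003 and open diamonds for Jagged1 DMSO. Genes from Ch25h to Mcf2l have intervals above 0. Notch3, Dbndd2, Il6 and the genes from C1qtnf5 to Hey1 have intervals below 0, and the intervals of Nrarp, Jag1, Heyl and Igfbp5 include 0. The intervals are not adjusted for the number of genes, and no gene passed in Jagged1 MRK-003. Genes named for their smallest p in this comparison were bound to have intervals that exclude 0.

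With the inhibitor present, no gene was called between Jagged1 and vector tumour cells. Jagged1 MRK-003 against vector MRK-003 gave 0 calls of 23441 genes (0%), 254 genes had an unadjusted p under 0.05, and the standard deviation of the differences over all genes was 0.0975. Only 1 gene, Fos, differed by at least 1 on the log2 scale, at -1.25 ± 0.50. On slide 1 Fos was at -3.07 in Jagged1 MRK-003 and -0.58 in vector MRK-003. On slide 2 it was at -1.49 in both, so the difference came from slide 1 only. Hey1 differed between Jagged1 MRK-003 and vector MRK-003 by 0.31, Hes1 by 0.22 and Dtx4 by 0.10, and none passed (limma, adjusted p = 1 for each). In vector MRK-003 alone Hey1 was at -2.68 and -2.17, and its difference from vector DMSO was -1.84 (limma, adjusted p = 0.0452). Hes1 fell there by 1.36 (adjusted p = 0.0452) and Dtx4 fell by 1.48 (adjusted p = 0.0317), both by limma. The difference between Jagged1 MRK-003 and vector DMSO is thus close in size, for these genes, to that between vector MRK-003 and vector DMSO, and the pairs share the vector DMSO arrays.

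Immediate early genes, which cells switch on within minutes of a stimulus, did not move as 1 group. Fos was at -3.07 and -1.49 in Jagged1 MRK-003, against 0.91 and 0.66 in vector DMSO. Its difference of -3.06 ± 0.50 was the largest of all 23441 genes in this comparison and did not pass (limma, adjusted p = 0.196, over the alternatives 0.0396 to 1). The difference was -3.98 on slide 1 and -2.14 on slide 2. Fos was at -0.58 and -1.49 in vector MRK-003 and at -1.07 and -0.63 in Jagged1 DMSO. All 3 other groups thus lay below vector DMSO for Fos.

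Ier2 was at -1.99 and -1.83 in Jagged1 MRK-003, against -0.42 and -0.85 in vector DMSO, a difference of -1.28 ± 0.16 (limma, adjusted p = 0.147). Dusp1, a phosphatase that switches off MAP kinases, was at -1.69 and -1.39 in Jagged1 MRK-003, against -0.17 and -0.27 in vector DMSO, a difference of -1.32 ± 0.17 (limma, adjusted p = 0.153). Junb, a partner of Fos in the AP-1 factor, differed by -0.81 ± 0.14. Zfp36, which encodes an mRNA-destabilising protein and is switched on by the same stimuli, was at -1.47 and -1.54 in Jagged1 MRK-003, against -0.16 and -0.52 in vector DMSO. Its difference was -1.16 ± 0.12 (limma, adjusted p = 0.111), and a further probe gave -0.96. Ier2, Dusp1, Junb and Zfp36 did not pass in Jagged1 DMSO against vector DMSO, where they were at -0.04, -0.33, 0.20 and -0.21. They differed between vector MRK-003 and vector DMSO by -1.12, -0.99, -0.87 and -0.91, which did not pass either. Over the 18 immediate early genes 7 lay lower and 2 higher with no overlap between the groups, against 12.8% and 14.8% of all genes, and none passed. Their median was -0.12, with -0.58 on slide 1 and 0.10 on slide 2.

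**Figure D4:**
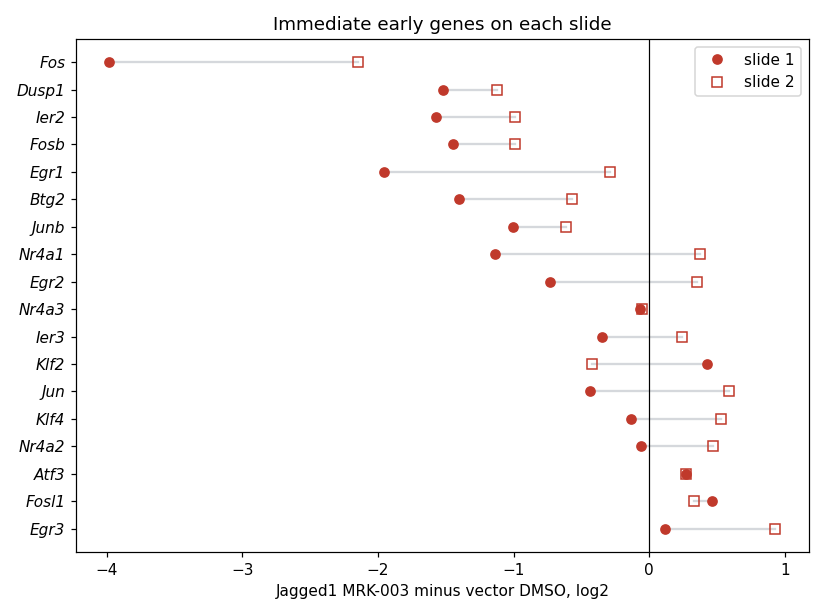
Difference between Jagged1 MRK-003 and vector DMSO for 18 immediate early genes, on the log2 scale, with filled circles for slide 1 and open squares for slide 2. Fos, Dusp1, Ier2 and Fosb lie below 0 on both slides, and for most genes the slide 1 value is the lower of the 2.

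Metallothioneins, small proteins that bind zinc and copper, and the zinc exporter gene Slc30a1 were among the 7 genes higher by at least 1 on the log2 scale. They were singled out after their values were seen. Mt1 was at -0.45 and -1.21 in Jagged1 MRK-003, against -1.19 and -2.54 in vector DMSO. The levels differ more between slides than between groups, but the inhibitor array was higher on each slide, and the difference was 1.03 ± 0.18 (limma, adjusted p = 0.200). Mt2 was at 1.12 and -0.27 in Jagged1 MRK-003, against 0.36 and -2.07 in vector DMSO, a difference of 1.28 ± 0.27 (limma, adjusted p = 0.235). The Mt2 spot was saturated in Cy3 on replicate 1 of Jagged1 MRK-003 and of vector MRK-003, so its level there can only be read as a lower limit. Slc30a1 was at 1.10 and 1.99 in Jagged1 MRK-003, against 0.44 and 0.58 in vector DMSO, a difference of 1.04 ± 0.28 (limma, adjusted p = 0.328). In vector MRK-003 the genes differed from vector DMSO by 1.00, 1.16 and 0.93 and in Jagged1 DMSO by -0.31, -0.57 and -0.27, in the same order, and none of these passed.

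The promoters of Mt1, Mt2 and Slc30a1 are shown because metal-response elements are known control sites of these genes. Each sequence runs 250 bases before to 50 after the RefSeq start on GRCm38.p6, plus strand. They lie on chromosome 8 at 94178839 to 94179138 for Mt1 and 94172368 to 94172667 for Mt2, and on chromosome 1 at 191906531 to 191906830 for Slc30a1. Capitals mark TGCNCNC, a pattern that takes in the core of the metal-response element but is looser than it, or its reverse complement:
Mt1 promoter: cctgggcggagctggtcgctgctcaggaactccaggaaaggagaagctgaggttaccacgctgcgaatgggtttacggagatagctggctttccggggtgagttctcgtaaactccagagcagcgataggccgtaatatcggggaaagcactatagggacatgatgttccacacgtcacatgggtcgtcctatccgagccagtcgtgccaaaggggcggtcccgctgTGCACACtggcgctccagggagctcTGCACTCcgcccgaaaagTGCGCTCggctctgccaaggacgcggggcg
Mt2 promoter: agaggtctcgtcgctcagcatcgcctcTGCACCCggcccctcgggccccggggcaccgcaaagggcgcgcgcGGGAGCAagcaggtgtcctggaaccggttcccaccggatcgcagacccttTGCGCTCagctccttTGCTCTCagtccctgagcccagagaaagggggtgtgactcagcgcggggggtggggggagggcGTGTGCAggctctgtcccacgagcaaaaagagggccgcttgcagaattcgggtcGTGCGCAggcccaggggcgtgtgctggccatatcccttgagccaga
Slc30a1 promoter: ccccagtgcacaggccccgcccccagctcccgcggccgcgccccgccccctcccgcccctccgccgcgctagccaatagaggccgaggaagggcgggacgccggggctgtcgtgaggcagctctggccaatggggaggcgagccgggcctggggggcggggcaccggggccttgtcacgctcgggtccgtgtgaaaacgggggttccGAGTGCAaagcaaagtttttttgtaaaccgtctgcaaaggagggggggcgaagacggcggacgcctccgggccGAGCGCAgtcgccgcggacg
The Mt1 window held 3 matches, the Mt2 window 6 and the Slc30a1 window 2. Of 32851 promoter windows of the same length, 51.0% held at least 1 match, 20.2% held 2 or more, 7.10% held 3 or more and 0.225% held 6 or more. A match of these letters need not be a metal-response element. It is a description and was not tied to the differences here.

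**Figure D5:**
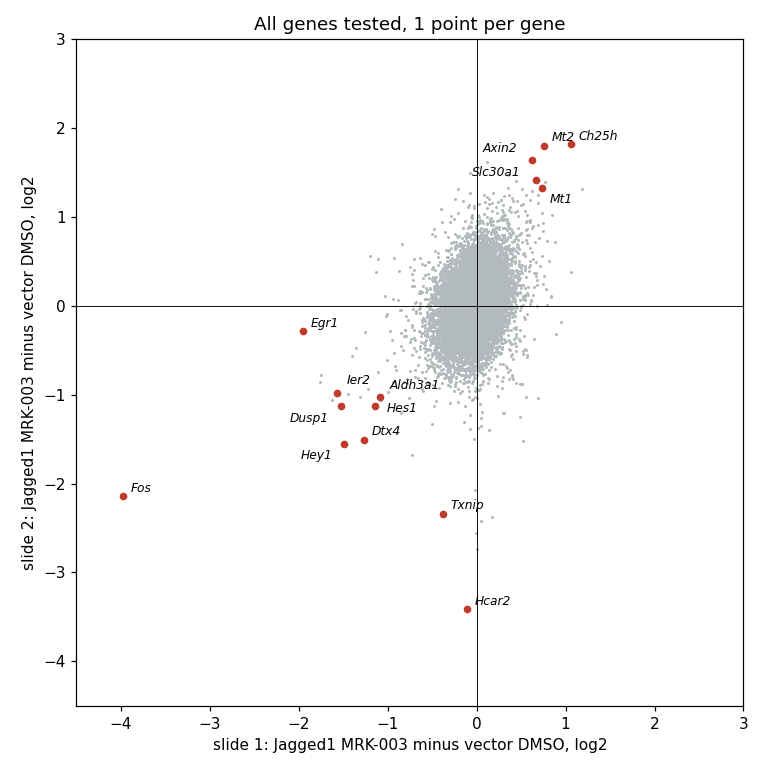
Jagged1 MRK-003 minus vector DMSO on slide 1 (horizontal) and slide 2 (vertical) for all 23441 genes, on the log2 scale, with 1 point per gene and named genes in red. Hey1, Dtx4 and Hes1 lie close to the diagonal, Ch25h, Mt2 and Axin2 lie further up on slide 2, and Hcar2 and Txnip differ on slide 2 and little on slide 1.

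Other gene groups had 0 calls, so their members are given as values. Among 21 hypoxia and glycolysis genes the median difference was 0.29, the furthest from 0 of the 21 lists, with 14 above 0, and 0.25 on slide 1 and 0.34 on slide 2. It was 0.13 with Cy3 alone, 0.19 with the mean over a gene's probes and 0.46 without the limit on local backgrounds. Slc2a1, the glucose transporter GLUT1, differed by 0.77 ± 0.13 and Pgk1, a glycolytic kinase, by 0.49 ± 0.10. Vegfa, the angiogenic growth factor of the same list, differed by -0.47 ± 0.11 in Jagged1 MRK-003 and by 0.93 ± 0.11 in Jagged1 DMSO, and its 2 further probes gave -0.40 and -0.44 in Jagged1 MRK-003. Among 21 interferon-stimulated genes the median was 0.14 (0.40 without that limit) and 18 were above 0. Bst2, which tethers virus particles, differed by 0.60 ± 0.10 and Isg15, a ubiquitin-like protein, by 0.39 ± 0.08. Among 21 cytokine and chemokine genes the median was 0.05 (0.29 without that limit), and the monocyte chemokine Ccl2 differed by 0.76 ± 0.12.

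Wnt targets and antagonists had a median of 0.19 over 21 genes (0.07 with Cy3 alone), with 15 above 0. Axin2, a feedback inhibitor and standard target of Wnt signalling, was at 1.22 and 1.73 in Jagged1 MRK-003, -1.19 and -0.39 in Jagged1 DMSO, and 0.60 and 0.09 in vector DMSO. The Axin2 probe was well above background on 2 of 2 arrays in each MRK-003 group, but on 1 of 2 in Jagged1 DMSO and in vector DMSO. Its low levels thus rest in part on dim spots, and so does its difference from vector DMSO of 1.13 ± 0.27 (limma, adjusted p = 0.300). Axin2 was also kept for testing only through the MRK-003 groups, where it is high, so this difference is not independent of the dim filter. Wnt10a, a Wnt ligand, differed by 0.68 ± 0.22 in Jagged1 MRK-003 and by -1.89 ± 0.22 in Jagged1 DMSO. Osteoblast differentiation and bone matrix genes had a median of -0.07 over 24 genes. Alpl, the alkaline phosphatase of mineralising osteoblasts, was at -0.70 and -0.02 in Jagged1 MRK-003, -2.10 and -1.39 in Jagged1 DMSO, and -0.82 and -0.44 in vector DMSO. The Jagged1 MRK-003 arrays of Alpl overlapped the control arrays, and the difference was 0.27 ± 0.11 (limma, adjusted p = 0.473). Bglap, the gene of osteocalcin, differed by 0.50 ± 0.10, and Enpp1, which makes pyrophosphate, by -0.57 ± 0.11. Enpp1 turned to 0.18 without the limit on local backgrounds. Col1a1, the main bone collagen gene, was saturated in Cy3 on 2 of 2 Jagged1 MRK-003 arrays and 1 of 2 vector DMSO arrays, so no difference is given for its brightest probe, and its 2 further probes gave -0.08 and 0.25.

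Cell cycle and DNA replication genes were at a median of 0.09 over 29 genes in Jagged1 MRK-003 and -0.51 in Jagged1 DMSO, where 14 of the 29 fell, against 2.41% of all genes. Mcm3, a subunit of the replicative helicase, differed by 0.45 ± 0.12 in Jagged1 MRK-003, and its other probe gave 0.06. Gins1, of the same helicase complex, differed by 0.32 ± 0.09, and its other probe gave 0.23. Cholesterol synthesis genes were at a median of 0.04 over 24 genes in Jagged1 MRK-003 and -0.29 in Jagged1 DMSO, where 6 of the 24 fell, against 2.41% of all genes. Ebp, a sterol isomerase, differed by 0.38 ± 0.08 in Jagged1 MRK-003 and fell by 1.08 in Jagged1 DMSO (limma, adjusted p = 0.00234). Stress response genes had a median of -0.10 over 20 genes, between Ppp1r15a, which restarts translation, at -0.99 ± 0.15 and Chac1, which degrades glutathione, at 0.67 ± 0.17. TGF-beta and BMP response genes had a median of 0.09 over 18 genes, with Id3, a BMP-induced inhibitor of DNA binding, at -0.61 ± 0.10. Contractile genes had a median of 0.08 over 16 genes, with the actin-binding gene Tagln at 0.65 ± 0.13. Matrix proteases and inhibitors had a median of -0.10 over 27 genes, with Timp3, an inhibitor of metalloproteinases, at 0.90 ± 0.19 and Mmp11, a metalloproteinase, at -0.49 ± 0.13. The 26 Notch receptor, ligand and processing genes had a median of -0.05.

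The markers of 6 other cell types had medians of -0.02 (epithelial), 0.07 (macrophage), 0.02 (osteoclast), 0.00 (adipocyte), 0.08 (chondrocyte) and -0.00 (endothelial), and none of their members passed. These medians depend on the limit on local backgrounds: without it they were 0.34 (epithelial), 0.44 (macrophage), 0.06 (osteoclast), 0.01 (adipocyte), -0.23 (chondrocyte) and 0.04 (endothelial), beside 0.01 over all genes. Single arrays bear on some of the 31 larger differences: for 8 of them 1 slide showed a difference under 0.5, or in the opposite direction. In 5 of these 31 genes vector DMSO replicate 2 lay over 1 on the log2 scale above all 7 other arrays. Hcar2 is an example, at 2.64 on that array and between -0.99 and -0.46 on the others. Its probe was well above background on 2 of 2 vector DMSO arrays and 1 of 2 in each other group. Hcar2 was thus kept for testing only through vector DMSO, and its other levels rest in part on dim spots. Txnip, which encodes a regulator of glucose uptake, differed by -0.38 on slide 1 and -2.34 on slide 2.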

How the data were processed

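Total RNA (175 ng) of each co-culture was labelled with Cy3 and a common reference RNA with Cy5 on all arrays, per the labels' protocols, with no dye swap. Dye bias stays in levels but cancels between groups. Agilent mouse arrays were read by the authors with Feature Extraction 9.5.3.1, per the file headers, which place probes on mm7. The deposited intensity values used were mean signals and median local backgrounds, not normalized, and the software's processed signals. The deposited log10 ratio is Cy5 over Cy3 and was not used. The deposited 0 or 1 flags gave outlier, saturated and well-above-background spots. The authors' deposited log2 value table matched the log2 ratio of processed signals to within 0.02 for 100% of probes once a constant was added for each array, which settles its scale, direction and centring, with column medians between 0.11 and 0.21.

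Local backgrounds over 2 times the array median were set to that median. Then came normexp (offset 50) and loess within arrays, with controls (1639 of 45018 spots) at weight 0. Of 41174 probes, 303 with outlier spots were left out, and 7811 that were not well above background in Cy3 on both arrays of any group. The 33060 kept gave 23441 genes, each by its brightest probe. RefSeq names were found by accession for 22951 probes and 18223 kept the file's name. limma 3.58.1 (R 4.3.3) fitted group and slide to all 8 arrays (3 residual degrees of freedom), with Benjamini-Hochberg adjustment over all genes in each of 4 comparisons and a threshold of 0.05. The fit was tested on simulated data.

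Replicate number is the slide in the file headers. Deviations of same-numbered arrays from their group means correlated at 0.371 to 0.855 over the 6 pairs of groups, so same-numbered arrays vary together. A shared slide effect and a pairing of the cultures cannot be told apart here. Named genes were the 5 gene symbols with the smallest p per direction (none passed), a set carried over from earlier results, and members of 21 lists. Clone, transcript and provisional gene names were left out of that choice of 5. The rule named 1 further gene that is not reported here. Members and lists were chosen with earlier results of these data known, so no list's direction is independent evidence. The alternatives were the background cap, the normalization, the dim filter, the block, the arrays fitted, the probe rule, the deposited table and leaving out each array.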

Additional observations from a re-analysis of the deposited data

Results flagged for a closer look

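Limma's test of the difference itself was read only for some genes. These were the 5 gene symbols with the smallest p per direction and the set carried over from earlier results. By that test, the effect of Jagged1 tumour cells differed between MRK-003 and DMSO in the genes listed below, at an adjusted p under 0.05. The others of these genes did not pass. That test was not read for the other genes named in the report, and the share over all genes was not taken. The genes were chosen with values from the same arrays, so their passing is not independent evidence. The values here are the Jagged1 effect in MRK-003 minus that in DMSO, on the log2 scale. Below 0 were Hey1 at -3.45, Dbndd2 at -1.72, Dtx4 at -1.65, Notch3 at -1.64, Jag1 at -1.15, Nrarp at -0.90 and C1qtnf5 at -0.88. Above 0 were Slc16a1 at 1.37, Mcf2l at 0.98 and Ifi27l2a at 0.89. Nrarp was well above background on both arrays in Jagged1 DMSO only, so its value rests on dim spots in the other groups. It was kept for testing only through Jagged1 DMSO, where it is high.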

How the results depend on the processing

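For Jagged1 MRK-003 against vector DMSO, the count of 0 genes became 1 with the background cap at 3 times the array median, 1 without the dim filter and 1 with the slide as a random block (Dtx4 each time), 3 with median centring (Dtx4, Hey1 and Hes1, all lower) and 18 with only the 4 arrays compared. It was 0 under the other settings that kept all arrays. Without the replicate block it was 0, with 923 genes at an unadjusted p under 0.05 and a smallest adjusted p of 0.150. Leaving out 1 array at a time gave 0 to 4, the 4 without vector DMSO replicate 1. The 888 calls of Jagged1 DMSO against vector DMSO became 108 without the cap, 234 with processed signals, 256 with the authors' deposited table, 439 with the random block and 41 without the replicate block, and 127 to 1071 with 1 array left out. The 7 calls of vector MRK-003 against vector DMSO became 0 without the cap, with processed signals, with the authors' deposited table, with Cy3 alone and without the replicate block, 3 with the random block and 17 with median centring, and 0 to 4 with 1 array left out. The median of the genes lower on slide 1, read on slide 2, was -0.0897 without the cap. Turned in sign were, without the cap, Enpp1 at 0.18; with processed signals Nrarp at -0.18; with Cy3 alone Heyl at 0.0593, Nrarp at -0.0165 and Col1a1 at 0.13; with the mean over probes Jag1 at 0.0315; with the authors' deposited table Nrarp at -0.18. With 1 array left out Nrarp was at -0.0061 to 0.172 and Jag1 at -0.157 to 0.132. Over all alternatives, 1264 values of named genes kept their direction and side of the threshold, 18 passed where the reported value did not, and 10 turned in sign. Of the gene lists' medians, 67 moved by more than the spread between slides and 332 did not. The causes were not tested. 2 arrays per group and dim slide 2 arrays limit the precision.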
